A study of Mus musculus with 6 samples.

Results

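The S100 genes encode small calcium-binding proteins, and 8 of them could be read on arrays that set a MyoD-silenced clone of C2C12, a mouse myoblast line, against C2C12 control cells. They were taken as every spot whose annotated gene symbol starts with S100, which gave 16 spots on 8 probes, 1 probe of 2 spots for each gene, among 1521 named genes and 2466 features in all. The rule also asked for CACYBP, the S100A6-binding protein, but 0 spots carried that symbol, and CACYBP was not analysed here. The genes were S100A6, S100A11, S100A10, S100A9, S100A8, S100A12, S100A1 and S100B.

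The clone, MyoD(-)cl.A8, was made from C2C12 cells of C3H mouse muscle by transfection of mouse MyoD cloned in antisense in the vector pcDNA 3.0, followed by selection in G-418. It is a single clone, set against cells that the labels name only as C2C12 control cells, so an effect of the clone and an effect of the silencing cannot be told apart, and whether the controls carried a vector is not stated. The labels give growth in DMEM with glutamine and fetal bovine serum and differentiation with horse serum in its place, and RNA was taken at days 1, 3 and 6 of differentiation. Each day had 2 arrays, A with the clone in Cy5 and B with the clone in Cy3, so 6 arrays gave 3 days. The A and B arrays of a day crossed the dyes on the same comparison and were averaged to 1 replicate. The p-values measure only spread between these 3 days, which may be technical. limma moderates that spread with the spread of all features, so a p-value does not rest on a gene's own 3 day means alone. The values are scores whose unit and scale are not stated, centred here on the median of each array, so no fold changes are given. A score above 0 is taken as higher in the clone, a direction that is likely because Test and Reference are the labels' own words for clone and control. Probe strength over background is unknown, the number of arrays limits the precision, and a score holds no level, so whether the cells express the defining genes of muscle was not tested. The probes are human and the RNA is mouse, and binding of a probe to the mouse gene of the same name was not tested. In these bulk samples, fewer cells expressing a gene and less of its RNA per cell cannot be told apart.

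S100 proteins carry a pair of EF-hand loops, mostly work as dimers, and open a binding surface when calcium binds, which lets them dock on annexins, cytoskeletal proteins and co-chaperones. They have no enzyme activity of their own. S100A6, also called calcyclin, is named for its link to cell growth. S100A11 and S100A10 are best known as partners of annexins A1 and A2, S100A1 as a regulator of calcium handling in striated muscle, and S100A8, S100A9 and S100A12 as proteins of myeloid cells. MyoD, which drives muscle differentiation, binds DNA at E-boxes, sites of the form CANNTG.

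The study's title places calcyclin under the control of MyoD, so the mouse promoters of S100A6 and S100A11, the genes that stood lowest, are shown with their E-boxes in capitals. They run from 250 bases before the RefSeq start of the gene to 50 bases after it (GRCm38.p6), and S100a8 is added as the promoter of this set with the most E-boxes. Of the 8 genes, 7 matched a mouse RefSeq gene by symbol and 6 had a promoter sequence.
S100a6 (chr3:90612644-90612943, + strand): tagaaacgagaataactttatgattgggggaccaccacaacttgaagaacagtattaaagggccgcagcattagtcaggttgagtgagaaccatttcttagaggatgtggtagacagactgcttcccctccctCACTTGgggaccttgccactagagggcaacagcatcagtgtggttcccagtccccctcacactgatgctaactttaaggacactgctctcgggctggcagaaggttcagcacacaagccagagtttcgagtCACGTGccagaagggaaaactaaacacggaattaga
S100a11 (chr3:93520246-93520545, + strand): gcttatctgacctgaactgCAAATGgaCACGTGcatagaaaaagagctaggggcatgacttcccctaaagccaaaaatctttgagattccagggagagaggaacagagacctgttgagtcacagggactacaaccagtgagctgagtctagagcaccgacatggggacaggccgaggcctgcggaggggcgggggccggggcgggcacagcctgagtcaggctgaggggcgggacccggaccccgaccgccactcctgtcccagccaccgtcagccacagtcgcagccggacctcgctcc
S100a8 (chr3:90668821-90669120, + strand): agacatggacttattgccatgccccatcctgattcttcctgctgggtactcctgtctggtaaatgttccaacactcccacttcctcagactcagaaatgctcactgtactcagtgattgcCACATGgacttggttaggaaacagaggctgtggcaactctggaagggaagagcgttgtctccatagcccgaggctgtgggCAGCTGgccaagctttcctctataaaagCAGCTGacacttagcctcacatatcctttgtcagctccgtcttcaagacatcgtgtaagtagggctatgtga

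The motif CANNTG reads as the same pattern on both strands. It occurred at 2 places in the S100a6 promoter, starting at positions -117 and 15 from the start of transcription, and at 2 in that of S100a11, at -231 and -223. The S100a8 promoter held 3 matches, of which 2 (at -50 and -22) were CAGCTG, the core that MyoD is known to prefer. S100a9 held 2 matches, S100b 1 and S100a1 0. Among 27025 promoters of this length, 1 per gene, 72.1% held at least 1 CANNTG and 39.6% at least 2, while 16.1% held CAGCTG. The letters CACGTG, a form searched for after the sequences had been seen, stood in both S100a6 (at 15) and S100a11 (at -223) and in 7.2% of all promoters. These matches are a description of the letters in this window and do not show binding.

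S100A6 (Entrez Gene 6277, NM_014624) was the lowest of all 2466 features by its mean over the days. Its scores were -1.98 and -2.26 on the day 1 arrays A and B, -5.72 and -7.04 on those of day 3, and -3.72 and -7.47 on those of day 6. All 6 arrays lay below 0, and each array of day 3 and day 6 lay below both arrays of day 1. Spot by spot the picture was the same, with 12 of 12 values below 0 between -7.86 and -1.27. Counting from the lowest, it ranked 73 and 45 among the 2466 features on the day 1 arrays, 1 on both day 3 arrays, and 6 and 1 on day 6. On day 1 it therefore stood near the lower edge of the bulk of features, and on the later days at or close to the very end.

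Averaged over the 3 days, S100A6 was lower in the clone than in control cells, with a mean score of -4.70 ± 2.26 (SD, n = 3 days; 95% interval in limma -6.0 to -3.40) and limma's adjusted p = 0.000698. The interval and p use limma's SE of 0.62, which draws on the spread of all features and not on this gene's own SD alone. S100A6 was the only S100 gene past the threshold of 0.05, where 9 of 2466 features passed in all (0.365%; 5 higher, 4 lower). The call ended without the day 3 array A (mean -4.92, adjusted p = 0.280 in limma), the day 6 array A (-5.32, 0.0751), day 3 (-3.86, 0.280) or day 6 (-4.25, 0.647), and with a robust prior (-4.70, 0.0762), while the mean lay between -5.99 and -3.86 under every alternative run. As a title gene of the study, S100A6 is not independent evidence for the choice of these genes.

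S100A11 (Entrez Gene 6282, NM_005620), the partner of annexin A1, was the second S100 gene with every array below 0. It scored -1.18 and -2.38 on day 1, -2.86 and -3.67 on day 3, and -1.39 and -0.83 on day 6. The day 3 arrays were the lowest and did not overlap with those of either other day, while the arrays of days 1 and 6 overlapped. All 12 spot values were below 0, from -4.11 to -0.17. Its mean of -2.05 ± 1.10 (SD, n = 3 days; 95% interval -3.06 to -1.04) ranked 7 from the bottom of 2466 but did not pass (limma's adjusted p = 0.0870). It passed without day 1 (-2.19, limma's adjusted p = 0.0396), but not without day 3 (-1.44, 0.907) or day 6 (-2.52, 0.647). It also passed with the 6 arrays taken separately (0.0482 in limma), a fit that counts the dye-swapped arrays of a day as replicates, but not in that fit with dye orientation as a block (0.0923 in limma). Of the 8 S100 genes, 2 were below 0 on 6 of 6 arrays, and over all features 71 of 2466 were (2.88%).

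S100A10 (Entrez Gene 6281, NM_002966), which differs from other S100 proteins in that it binds annexin A2 without calcium, came next. Its scores were 0.29 and -1.06 on day 1, -0.65 and -1.63 on day 3, and for day 6 they were -1.11 and -1.95. A single array, A of day 1, lay above 0, and the day means of -0.39, -1.14 and -1.53 were ordered by day although the arrays of neighbouring days overlapped. The mean was -1.02 ± 0.58 (SD, n = 3 days), with an adjusted p of 0.657 in limma (0.0346 before adjustment), so it did not pass. Of its 12 spot values 11 were below 0.

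**Figure D1:**
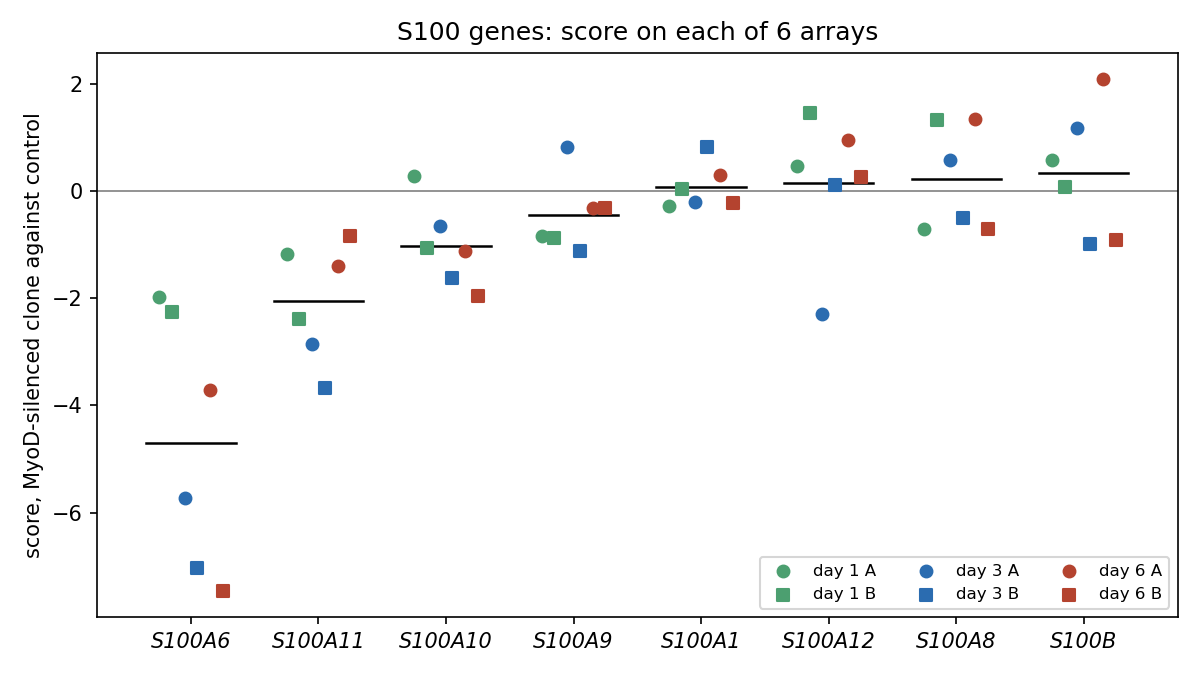
Score of each S100 gene (clone against control, vertical axis, in deposited score units) on each of 6 arrays, with circles for array A and squares for array B, coloured by day, and a bar at the mean over the 3 days. S100A6 and S100A11 lie below 0 on all 6 arrays, at means of -4.70 and -2.05. S100A10 and S100A9 each lie below 0 on 5, and the other genes on fewer.

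The calgranulins S100A8 and S100A9 pair with each other in neutrophils and monocytes. S100A9 (Entrez Gene 6280) scored -0.83 and -0.87 on day 1, 0.83 and -1.12 on day 3, and -0.31 and -0.32 on day 6. On days 1 and 6 its arrays were nearly alike, while those of day 3 fell on opposite sides of 0. S100A8 (Entrez Gene 6279) scored -0.71 and 1.33, 0.59 and -0.51, and 1.35 and -0.70 on the same arrays, with opposite signs within every day. Their means of -0.44 ± 0.37 and 0.23 ± 0.16 (SD, n = 3 days) missed the threshold (adjusted p = 0.973 and 0.983 in limma).

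S100A12 (Entrez Gene 6283) encodes another calgranulin, a human gene that mice are known to lack. Its probe scored 0.47 and 1.45 on day 1, -2.30 and 0.12 on day 3, and for day 6 0.96 and 0.26. A single array, A of day 3, lay below 0, and its distance from 0 exceeded that of S100A6 on either day 1 array. The mean was 0.16 ± 1.09 (SD, n = 3 days; limma's adjusted p = 0.983).

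S100A1 (Entrez Gene 6271), the muscle member, was at -0.28 and 0.04 on day 1, -0.21 and 0.83 on day 3, and 0.31 and -0.22 on day 6. Its arrays disagreed in sign on each day, as did its 2 spots on 4 of 6 arrays. The mean of 0.08 ± 0.22 (SD, n = 3 days) had a 95% interval of -0.83 to 0.99 in limma and an adjusted p of 0.991. S100B (Entrez Gene 6285), a member known from glia, scored 0.59 and 0.08 on day 1, 1.17 and -0.98 on day 3, and 2.10 and -0.92 on day 6. On days 3 and 6 array A was above 0 and array B below it. Its mean of 0.34 ± 0.25 had an adjusted p of 0.983 in limma.

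Taken as a set, the 8 genes had 4 means above 0 and 4 below, with a median of -0.18, against 0.00 over all 2466 features. Without S100A6 and S100A11 the remaining 6 had a median of 0.12 and ran from -1.02 to 0.34. The arrays A and B of a day lay apart in several of them. The difference between arrays A and B divided by 2, which holds dye effects and array noise that cannot be told apart here, was 1.87 for S100A6 and 1.51 for S100B on day 6, and -1.21 for S100A12 on day 3, against a median size of 0.47 over all features and days. For S100A6 it was 0.14 on day 1 and 0.66 on day 3. The part of the dyes in the results was not tested beyond the fit with dye orientation as a block.

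**Figure D2:**
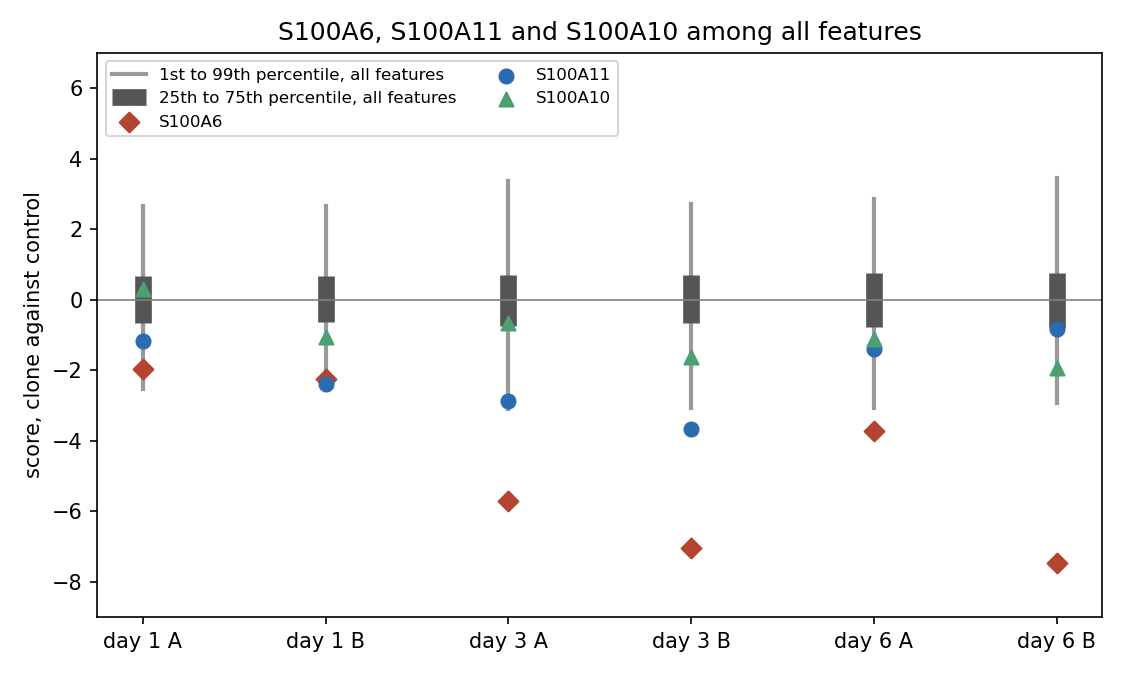
Scores (clone against control, vertical axis) of S100A6, S100A11 and S100A10 on each of the 6 arrays, with thick bars from the 25th to the 75th percentile of all 2466 features and thin bars for their 1st to 99th percentile. S100A6 lies inside the thin bar on day 1, at -1.98 and -2.26, and below it on the 4 later arrays; S100A11 lies below it on day 3 array B alone, at -3.67.

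Within a day there was 1 pair of RNAs and no test, so a feature was counted where arrays A and B were both 2 or more units above 0 or both 2 or more units below it. On day 1 none of the 8 S100 genes reached this (0 of 8, against 20 of 2466 features, 0.811%). On day 3 it was 2 of 8, S100A6 and S100A11, both lower, against 31 of 2466 (1.26%). On day 6 it was 1 of 8, S100A6, lower, against 45 of 2466 (1.82%). S100A6 missed the count on day 1 by array A, at -1.98.

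Whether the difference moved with time was asked with a straight line through the 3 day means. S100A6 had a slope of -0.62 ± 0.31 score units per day (SE; 95% interval -1.34 to 0.10) and an adjusted p of 0.898 in limma, so its lower scores on days 3 and 6 than on day 1 (day means -6.38 and -5.59 against -2.12) did not pass as a trend. Without the day 6 array A the slope was -1.01, and without the day 6 array B -0.22. S100A10 had -0.22 ± 0.19 per day and S100A11 0.18 ± 0.24, and the other 5 lay between -0.02 and 0.09. None of the 8 was called, and limma called 0 of 2466 features (0%), with 121 at an unadjusted p under 0.05. With the 6 arrays taken separately limma called 5 features and with the days in order 11, of which 0 were S100 genes in either.

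The proteins that S100 proteins bind were read from a list of 28 partners, of which 10 were measured and none passed. Their median was 0.32, with 8 above 0 and 2 below, against 0.00 over all features. SUGT1, a co-chaperone that binds S100A6, was highest, at 1.12, 2.80 and 2.44 on days 1, 3 and 6 (mean 2.12 ± 0.88, SD, n = 3 days; limma's adjusted p = 0.0567). STIP1, which links the chaperones HSP70 and HSP90, averaged 1.25 ± 0.81 (adjusted p = 0.486). These stood on the other side of 0 from S100A6. ANXA2, the annexin that S100A10 binds, was lowest, at -1.89, -0.59 and -1.94, and below 0 on 6 of 6 arrays (mean -1.47 ± 0.77, limma's adjusted p = 0.255). ANXA5, the other annexin measured of 12 listed, averaged -0.24 ± 0.40.

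**Figure D3:**
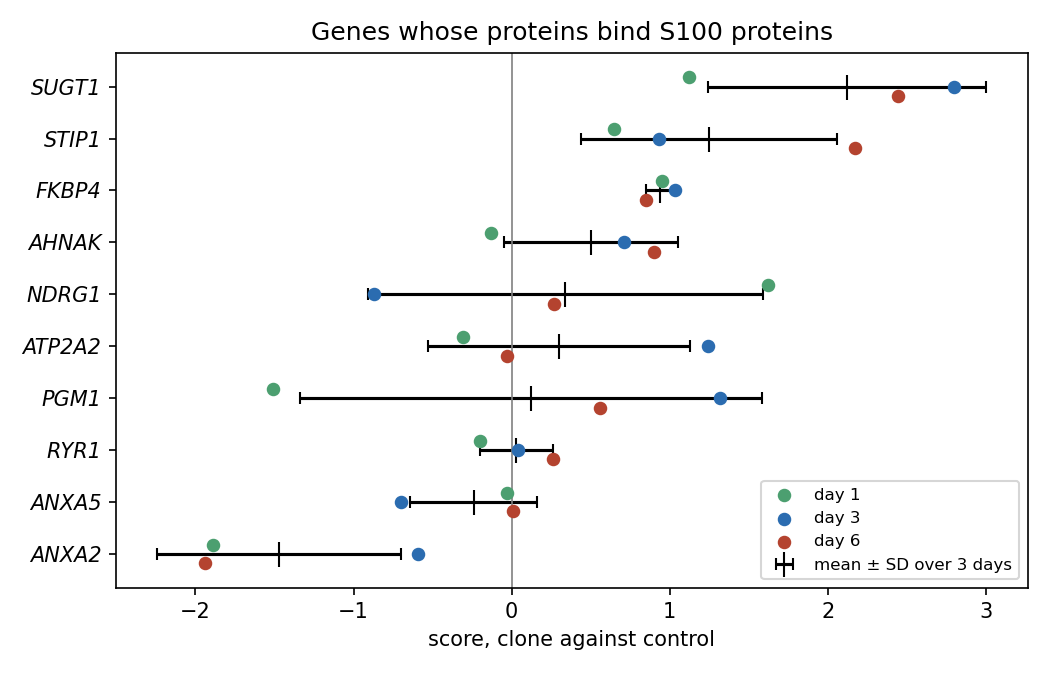
Scores (clone against control, horizontal axis) of the 10 measured genes of S100-binding proteins, as coloured points for the means of days 1, 3 and 6 and black bars for the mean ± SD over the 3 days. SUGT1 stands highest at 2.12 and ANXA2 lowest at -1.47, and none passed limma's test.

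Other EF-hand proteins, calcium binders outside the S100 family, had 12 of 51 listed genes measured, of which 4 were above 0 and 8 below, with a median of -0.18 and none called. SPARC, a secreted matrix protein, was lowest at -0.99 ± 0.70 and ACTN2, the alpha-actinin of the Z-disc, followed at -0.78 ± 1.49. MYL6B, a myosin light chain, was highest at 0.72 ± 1.25, and ACTN3 next at 0.29 ± 1.19. CACYBP is known to join a ubiquitin ligase that degrades beta-catenin. Of 14 genes listed for beta-catenin degradation in general 2 were measured, CUL1 at 0.67 ± 0.72 and RBX1 at 0.49 ± 0.87. Neither passed (limma's adjusted p = 0.879 and 0.954), and whether either acts with CACYBP was not tested.

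Markers of cell states were set beside the S100 scores. The 9 measured of 15 skeletal muscle markers had a median of 0.00 over the days, and of -0.24, -0.13 and 1.17 on days 1, 3 and 6, with the intermediate filament gene DES (0.90) and the troponin TNNT1 (0.17) highest and the troponins TNNT3 and TNNI1 lowest (both -0.06). A mean over the days can hide a change between them. TNNT3 had day means of -0.91, -0.46 and 1.17, and TNNI1 of 0.18, -0.13 and -0.22. The largest spreads over the days were those of TNNI2 (-1.80, 0.11 and 1.57) and ACTA1 (-1.38, -0.31 and 1.70). Of the 9, only TNNI1 and MYF6 (0.12, 0.47 and -0.16) were lower on day 6 than on day 1. MYOD1 itself scored 0.02, 0.04 and 0.38 on the 3 days, but the construct carries MyoD sequence and the sources used here do not give the strand that the probe binds, so this does not check the silencing. Of 6 smooth muscle markers, 3 were measured, with a median of -0.05 from TAGLN (-0.87) to CNN1 (0.25). The 2 measured of 9 fibroblast markers were FN1 at -0.44 and POSTN at 0.27, and the 2 of 6 adipocyte markers were FABP4 at -0.04 and SCD at 0.04. None of these markers passed. Their part in the S100 scores was not tested.

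The 5 named genes nearest to S100A6 by Euclidean distance over the 6 arrays, in score units, were MIF (6.38), DUSP26 (7.12), NUB1 (7.82), CKMT2 (8.11) and ARHGAP33 (8.23), and S100A11 itself lay at 8.35. All were far from it, as S100A6 lay 12.68 from the point where every score is 0, against a median of 2.44 over genes. MIF, a secreted cytokine, had day means of -1.77, -4.49 and -1.97, each closer to 0 than the day mean of S100A6. S100A11, itself 5.60 from the point where every score is 0, had closer company, with TNFAIP2 (2.17), STARD10 (2.36), LRP1 (2.44), GPX1 (2.48) and MIF (2.49). Each was below 0 on 6 of 6 arrays, which largely follows from choosing genes near one that is below 0 on every array. GPX1, the glutathione peroxidase, averaged -1.22 and LRP1, a lipoprotein receptor, -1.42.

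The genes beside S100A6 in spot order were looked at after the values had been seen. DUSP26, a dual-specificity phosphatase, had a probe on spots 1797 and 1798, next to S100A6 on spots 1799 and 1800, and a second probe on spots 1793 and 1794. The adjacent probe scored -1.88 and -1.41 on day 1, -3.41 and -4.52 on day 3, and -2.94 and -4.07 on day 6 (mean -3.04). The other DUSP26 probe scored 0.11 and 1.02, -2.60 and -1.40, and -1.03 and -2.38 (mean -1.04). On all 6 arrays the adjacent probe was lower than the second probe of the same gene and higher than S100A6. EIF3F, between the DUSP26 probes, averaged -1.01, and EEF1B2, just before them, averaged -1.19 with -3.97 on the day 6 array B. On the other side of S100A6, ACTG1 averaged -0.79. The 4 probes just before S100A6 and the 1 just after it thus had means below 0. The ends of this run were set by the values, as the next probes out were above 0, NDUFA11 at 0.24 and an unnamed probe at 0.92. The median of the 20 nearest probes was 0.02. The sources used here do not say whether spots with neighbouring numbers lie beside each other on the slide, and the part of position in the DUSP26 values was not tested. With the median of 10 neighbouring probes subtracted, S100A6 had a mean of -4.64 and passed limma's test (adjusted p = 0.00102). Those 10 were taken at alternate places on both sides of S100A6, which left out both DUSP26 probes and ACTG1. That fit therefore cannot address values that S100A6 shares with the probes adjacent to it. In the same fit S100A11 had a mean of -1.85 and did not pass (limma's adjusted p = 0.154). Its adjacent probes, PXN and TMED1, were likewise left out.

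**Figure D4:**
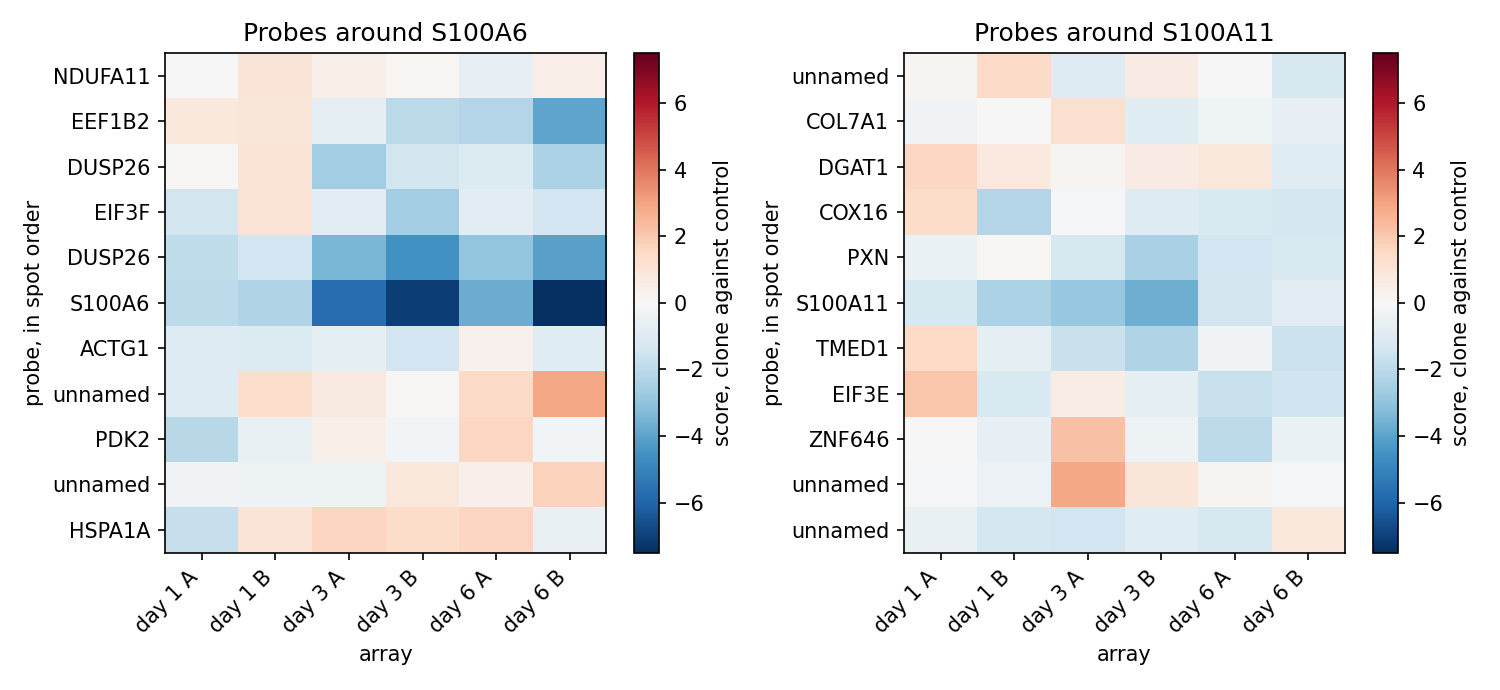
Scores (colour, clone against control) on the 6 arrays (columns) for the 11 probes in spot order centred on S100A6 (left) and on S100A11 (right). S100A6 and the DUSP26 probe just above it are low on all 6 arrays, at means of -4.70 and -3.04. Around S100A11 no other probe has a mean under -1.10. The probes on either side of it were also below 0 on day 3, PXN at -1.20 and -2.46 and TMED1 at -1.68 and -2.26.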

How the data were processed

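Trizol RNA was labelled as cDNA by tyramide signal amplification and hybridised in 2 colours to a muscle array of human probes, per the labels' protocols. Each spot has a deposited score, and the steps by which the authors made these scores are not given in the sources used here. They have SDs of 1.41 to 1.62 per array, and 2 exceed 16, so they were not read as log2 ratios; design and tests were kept with score units.

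The annotation names 3486 of 5376 spots. Odd and following even spots shared a symbol in 1743 of 1743 named pairs and were averaged, as were probes of a gene, and each array was centred on its median (0 missing values). Duplicate spots correlated at 0.25 to 0.60. Arrays of a day correlated across features at 0.16 to 0.21, and those of different days at -0.08 to 0.12. The replicate letters mark the dye orientation, per the labels. limma 3.58.1 (R 4.3.3) tested all 2466 features, two-sided, with Benjamini-Hochberg adjustment. It was also run on simulated day means with independent noise. The slopes put in there were larger in size than those of the S100 genes, so recovery of slopes as small as these was not tested.

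Members, lists, thresholds and alternatives were chosen with earlier results of these data known. The genes named are all S100 genes, the 5 nearest genes to S100A6 and to S100A11, and the highest and lowest list members, with others for context. Figures used Python 3.11.15 and matplotlib 3.10.9.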

Additional observations from a re-analysis of the deposited data

How the results depend on the processing

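Each result was recomputed under other settings. Of the 2466 features, 9 passed limma's test of the shared change, and 5 did with the 6 arrays separate and the replicate block (dye orientation), 4 among genes with a symbol only, 4 with neighbouring probes subtracted, and 0 to 29 with an array or a day left out (0 without the day 3 array A, day 3 or day 6, and 29 without day 1). Against the same fit without the block, S100A6 stayed called (-4.70, limma's adjusted p = 0.00727 with the block), while the call of S100A11 ended (0.0923 with the block, 0.0482 without it). The letters mark the dye orientation, and the differences of array A minus array B correlated across features at -0.04 to 0.00 between days. The number of S100 genes called, 1 in the main setting, was 2 with 6 separate arrays, 0 with a robust prior, and 0 to 2 with an array or day left out. Over all 2466 features, limma called 10 with 6 separate arrays and 7 with a robust prior. S100A6 stayed at -4.70 with a robust prior, where its call ended, and ran from -5.99 to -3.86 with an array or day left out. S100A11 stayed at -2.05 with 6 separate arrays, where it passed, and ran from -2.52 to -1.44. For the slope, limma called 0 features in the main setting, 11 with the days in order, 5 with 6 separate arrays, 3 with the replicate block, 4 as deposited, 1 with arrays scaled to equal size, 13 with neighbouring probes subtracted, and 0 to 11 with an array left out, of which 0 were S100 genes. The cause of these changes was not tested.

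Means near 0 changed sign when an array or day was left out: S100A1 ran from -0.10 to 0.25, S100A8 from -0.12 to 0.57, S100A12 from -0.24 to 0.78 and S100B from -0.16 to 0.84. The slopes ran from -0.03 to 0.08 for S100A1, -0.21 to 0.23 for S100A8, -0.11 to 0.07 for S100A12 and -0.26 to 0.38 for S100B, and that of S100A9 was -0.05 with neighbouring probes subtracted. On day 1 the count of S100 genes past the threshold on both arrays was 2 at 1 unit and 1 with scaled arrays, on day 3 it was 1 at 3 units, and on day 6 it was 2 at 1 unit. Over all features 177, 204 and 268 passed at 1 unit on days 1, 3 and 6, and 8, 7 and 7 at 3 units. With scaled arrays 30 features passed on day 1.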

Other observations

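In the mouse genome 6 of the 8 S100 genes lie on chromosome 3, where RefSeq lists 15 genes named S100a. In their order along the chromosome the measured genes and their mean scores over the days were S100A1 at 0.08, S100A6 at -4.70, S100A8 at 0.23, S100A9 at -0.44, S100A11 at -2.05 and S100A10 at -1.02. Between S100a6 and S100a8 RefSeq lists 1 other S100 gene, S100a7a, so genes with scores as far apart as -4.70 and 0.23 lie close in that order. S100a11 and S100a10 follow each other among the S100 genes. Both had day means below 0 on days 1, 3 and 6, but so did S100A6 and S100A9, so this was not particular to that pair.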
